A study of Mus musculus with 12 samples.

Results

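The 39 genes described here encode cyclins, cyclin-dependent kinases and proteins of DNA replication and mitosis. They were taken by name from the 20775 genes that the RNA-seq tables list at each of 2 stages, and all 39 were present in both tables. Their expression was compared between controls and samples in which Med30 was deleted in cardiomyocytes, in whole embryonic hearts and in isolated adult cardiomyocytes. Med30 encodes a core subunit of the Mediator complex, which links transcription factors to RNA polymerase II. Of the 39 genes, 39 reached the level needed for the test in embryonic hearts (E10.5), and 10 reached it in adult cardiomyocytes.

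Cells enter the cycle when D-type cyclins with Cdk4 and Cdk6, and then cyclin E with Cdk2, release E2F factors from pocket proteins. E2F factors raise the genes that license replication origins and make nucleotides, and Foxm1 and the MuvB complex raise the genes that build the spindle and drive mitosis. Cardiomyocytes of the embryonic heart divide, whereas most of those in the adult heart have left the cycle and keep these genes low.

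At E10.5, whole hearts of Med30 f/f embryos that carried Tnnt-Cre (cKO, n = 3 samples) were compared with those of littermates without Cre (Ctrl, n = 3). Tnnt-Cre removes exon 1 of Med30, which lies between loxP sites, from cardiomyocytes alone, so other cells of the heart keep the gene. The knockout columns of the E10.5 table are headed icKO, and the labels of the samples give them as the cKO. Adult cardiomyocytes were taken at 3 months of age, 4 weeks after tamoxifen (TAM), from Med30 f/f mice with αMHC-MerCreMer (icKO, n = 3 samples) and from Med30 f/f mice without Cre that had received tamoxifen as well (Ctrl, n = 3 samples). The labels call all controls wild type, give the strain as C57BL/6 and name heart as the source at both stages. Since Cre is present in the knockout samples alone, an effect of Cre cannot be told apart from that of Med30 loss. Nothing in the labels says how many animals a sample holds, and the p values measure the spread between these samples.

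Levels are RPKM, reads scaled to gene length and library size, as the authors deposited them. Med30 itself was at 10.6, 13.3 and 11.3 RPKM in the Ctrl and 1.38, 2.02 and 1.004 RPKM in the cKO samples, and at 7.66, 7.45 and 7.66 RPKM in the Ctrl and 3.81, 3.16 and 1.82 RPKM in the icKO samples, so the libraries follow their labels. The depth came to 13.7 to 19.9 M reads per library at E10.5 and 11.96 to 17.5 M reads in the adult, as estimated from the spacing of the lowest values. A level of 3 reads on a gene of 2 kb was 0.0753 to 0.109 RPKM at E10.5 and 0.0857 to 0.125 RPKM in the adult, which covers counting error only. In bulk RNA, fewer cells of a type and less RNA per cell cannot be told apart.

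The 39 genes were far more abundant in the embryonic than in the adult samples. Their summed level was 1127 to 1256 RPKM in the E10.5 Ctrl hearts and 63.7 to 68.6 RPKM in the adult Ctrl cardiomyocytes. In the cKO hearts the sum was 912, 890 and 1023 RPKM, below every Ctrl heart, and in the icKO cardiomyocytes it was 142.7, 127.3 and 128.3 RPKM, above every Ctrl sample. The summed RPKM of all genes was 197081, 159338 and 172358 in the E10.5 Ctrl and 148735, 148074 and 162839 in the cKO hearts. Of that sum the 39 genes made up 0.637%, 0.734% and 0.654% in Ctrl and 0.613%, 0.601% and 0.628% in cKO hearts. In the adult they made up 0.0300%, 0.0283% and 0.0300% in Ctrl and 0.0627%, 0.0533% and 0.0580% in icKO samples. The tables were made separately and hold whole hearts and isolated cells, so the 2 sets of levels are set side by side with no test.

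**Figure D1:**
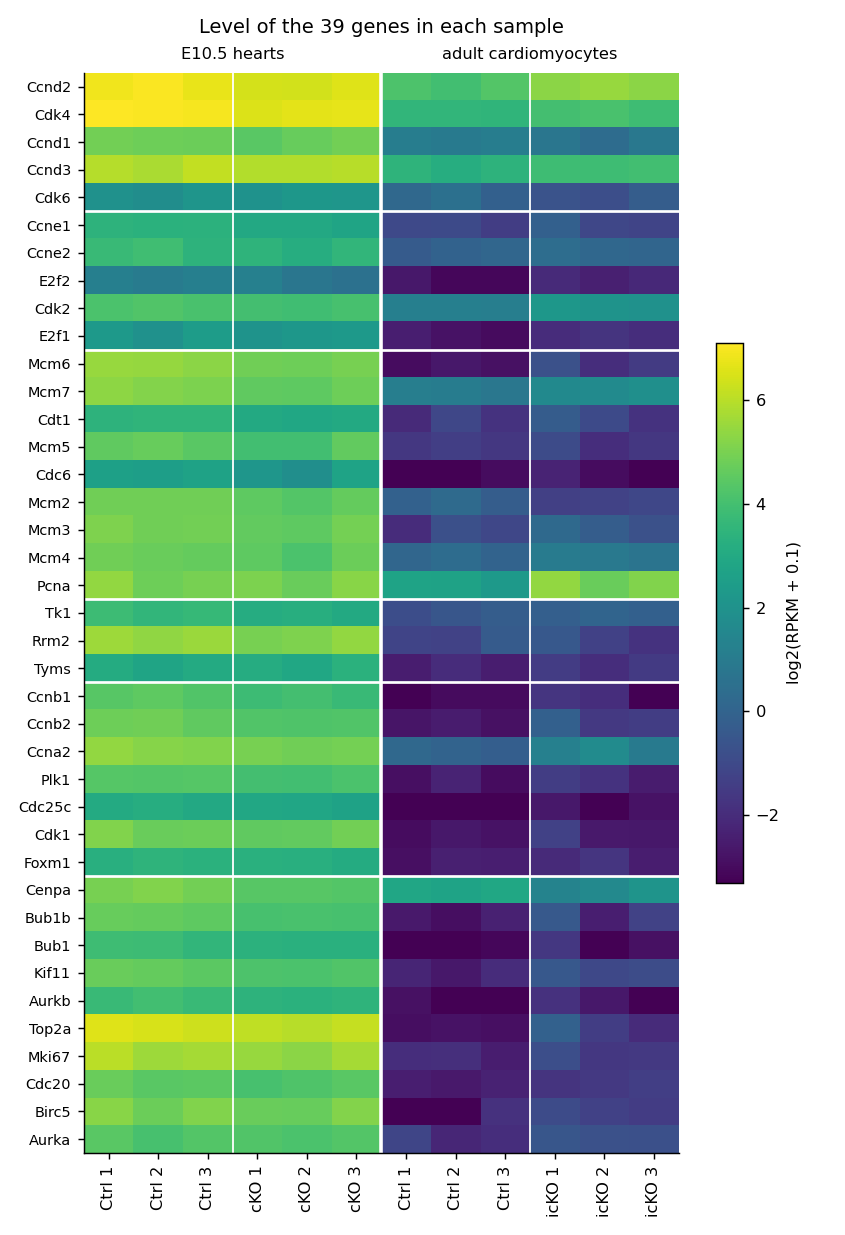
Level of each of the 39 genes (rows, grouped by role with white lines) in each of the 12 samples (columns), as log2(RPKM + 0.1) on the colour scale. The embryonic columns are bright throughout, with summed levels of 890 to 1256 RPKM, and the adult columns are dark except for a few rows such as Ccnd2, Cdk4, Ccnd3, Pcna and Cenpa.

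At E10.5 the cell cycle genes lay lower in cKO hearts, by modest amounts. Of the 39 genes, 37 had a log2 fold change below 0, where 68.6% of all 10885 genes tested did, and their median was −0.34 against −0.13 for all genes. After median-ratio scaling, which brings the median of all genes to −0.01, 33 of the 39 were below 0 with a median of −0.22. The expression of 9 genes, Cenpa, Mcm6, Tk1, Ccnb1, Mcm7, Bub1b, Ccne1, Cdt1 and Ccnb2, fell at a limma adjusted p under 0.05, where 3.45% of all genes tested fell. No member rose at that threshold, where 0.864% of all genes rose, and none rose at an unadjusted p under 0.05. A log2 fold change beyond 1 and an adjusted p under 0.05 were reached by 0 of the 39 genes in either direction. Of all genes 0.542% were lower and 0.239% higher by that rule. With an unadjusted p under 0.05 the count was also 0 of the 39, and the share of all genes was not counted. In 20 of the 39 genes every cKO sample lay under every Ctrl sample, which held for 22.6% of all genes tested. The median deviation of the 39 genes from the Ctrl mean was −0.36 in cKO 1, −0.41 in cKO 2 and −0.18 in cKO 3 on the log2 scale, so cKO 3 lay nearest to Ctrl.

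**Figure D2:**
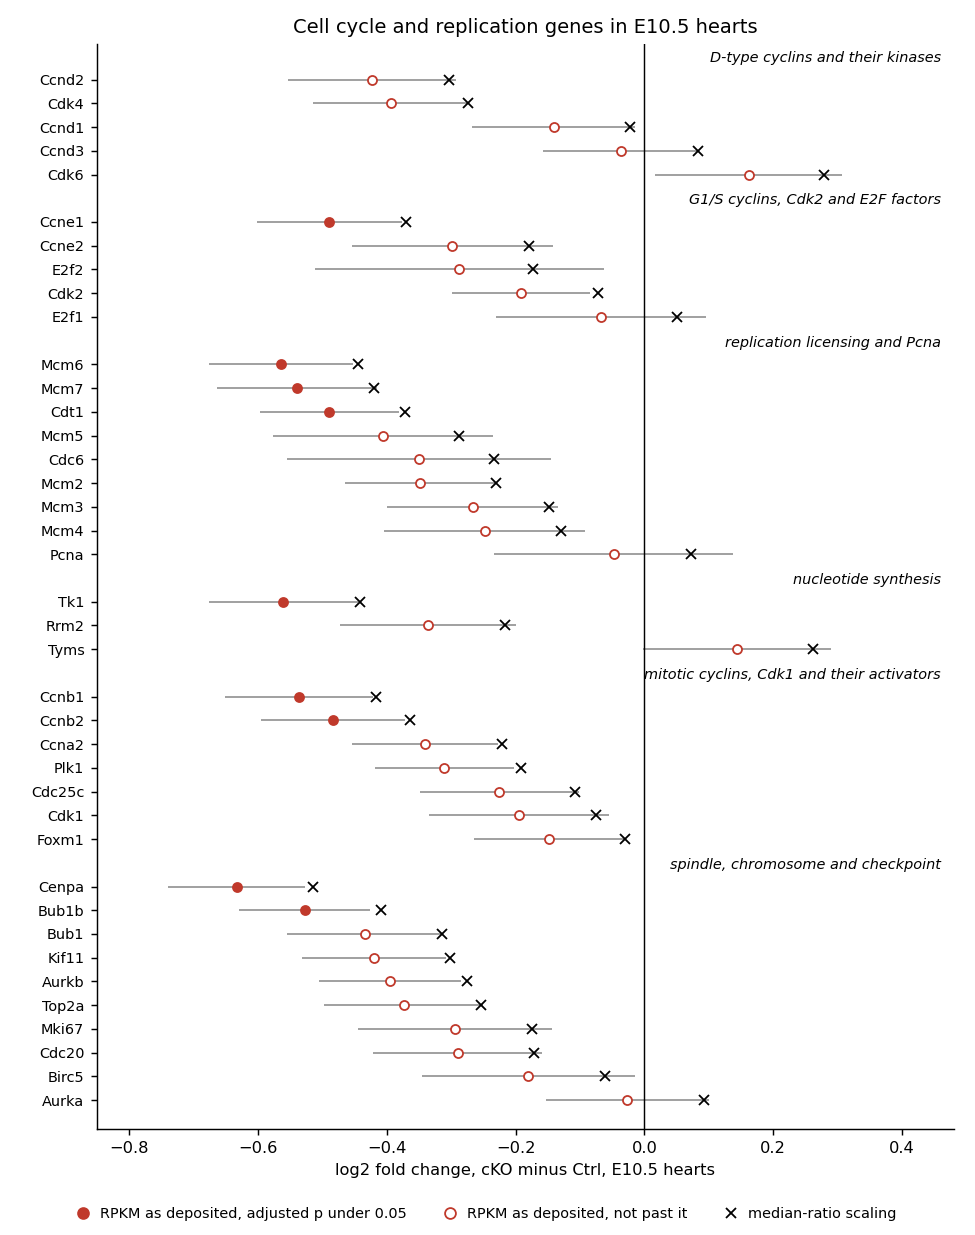
Log2 fold change of the 39 genes in E10.5 cKO against Ctrl hearts, by role, with circles for the RPKM as deposited (bars, 1 standard error of the limma fit; filled, adjusted p under 0.05) and crosses for median-ratio scaling. All but Cdk6 and Tyms lie left of 0 with the RPKM as deposited, and the 9 filled circles lie between −0.63 and −0.48.

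The number of these calls moved with the fit, from 0 to 21 over all settings tried. With median-ratio scaling 5 of the 9 stayed under the threshold, Mcm6, Mcm7, Bub1b, Tk1 and Cenpa, where 2.6% of all genes fell and 2.45% rose. The count of members lower was 1 without Ctrl 1, 2 without Ctrl 2, 7 without cKO 3, and 0 without Ctrl 3, cKO 1 or cKO 2, where 19, 16 and 14 members were lower at an unadjusted p under 0.05. No share of all genes was counted at an unadjusted p, so those member counts stand without one. At the adjusted p the count over all genes moved too. Of the 10861 to 10901 genes tested, 49 fell without Ctrl 1, 174 without Ctrl 2 and 583 without cKO 3. Without Ctrl 3, cKO 1 and cKO 2 it was 19, 49 and 39 genes.

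The summed level of 12 cardiomyocyte markers was 7263 to 10685 RPKM in Ctrl and 5161 to 6186 RPKM in cKO hearts, with 2 of the 12 lower by the test and none at 0. The 10 endothelial and endocardial markers summed to 174.9 to 227.3 RPKM in Ctrl and 196.1 to 217 RPKM in cKO hearts, and 10 erythroid markers to 329 to 1095 and 506 to 2963 RPKM, with none of either list past the test. Fibroblast markers (10 genes) summed to 109.3 to 187.8 and 136.4 to 157 RPKM, epicardial ones (7) to 64.4 to 76.1 and 60.4 to 84.2, mural ones (6) to 26.8 to 32.1 and 28.2 to 30.2, and those of macrophages and leukocytes (10) to 8.75 to 11.7 and 4.99 to 7.03, with Cd14 listed at 0 in every sample. Of these 4 lists Tbx18 (epicardial) and Lyz2 (leukocytes) were lower by the test, by which 3.45% of all genes tested fell. The part of these cells in the lower level of the cell cycle genes was not tested.

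Among the D-type cyclins and their kinases, which start the cycle, 0 of 5 passed the test. At an unadjusted p under 0.05, for which no share of all genes was counted, 2 of the 5 were lower. Cdk4, the kinase partner of the D cyclins and the most abundant of the 39 genes, was at 138, 133 and 124 RPKM in Ctrl against 94.0, 102 and 104.97 RPKM in cKO hearts (log2 fold change −0.39, limma adjusted p = 0.0892). Ccnd2, cyclin D2, was at 118, 134 and 108 RPKM in Ctrl against 86.1, 85.5 and 96.6 RPKM in cKO hearts (−0.42, limma adjusted p = 0.0908). In both genes the groups did not overlap. Ccnd1 (−0.14), Ccnd3 (−0.04) and Cdk6 (0.16) overlapped between the groups, and the sign of Ccnd3 turned with median-ratio scaling (0.08).

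Of the 5 genes of the G1/S transition, Ccne1 fell. This cyclin activates Cdk2 at the start of S phase, lies on chromosome 7 from 38097984 to 38107534 of GRCm38, and was at 10.7, 10.1 and 10.48 RPKM in Ctrl against 7.68, 7.82 and 6.75 RPKM in cKO hearts. Its mean fell by 28.9% (log2 fold change −0.49, standard error 0.113, limma adjusted p = 0.0437). Cdk2, the most abundant of this group, was at 17.9, 19.4 and 17.1 RPKM in Ctrl against 15.8, 15.0 and 16.8 RPKM in cKO hearts, without overlap and with an adjusted p of 0.307 (limma). Ccne2, E2f1 and E2f2, the last 2 of them activating E2F factors, had log2 fold changes of −0.30, −0.07 and −0.29 with overlapping groups.

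Replication licensing loads the Mcm2 to Mcm7 helicase onto origins through Cdc6 and Cdt1, and 3 of 9 genes of this group fell. Mcm6, on chromosome 1 from 128331590 to 128359664, was at 45.7, 44.4 and 39.2 RPKM in Ctrl against 28.4, 27.6 and 31.3 RPKM in cKO hearts, a fall of the mean by 32.5% (log2 fold change −0.56, standard error 0.112, limma adjusted p = 0.0291). Mcm7, on chromosome 5 from 138164583 to 138172422, was at 40.3, 35.7 and 33.0 RPKM in Ctrl against 23.9, 23.0 and 28.1 RPKM in cKO hearts (−0.54, standard error 0.124, limma adjusted p = 0.0431). For both subunits every cKO heart lay below every Ctrl heart. Cdt1, the loading factor, on chromosome 8 from 122568015 to 122573554, was at 10.6, 11.2 and 11.3 RPKM in Ctrl against 8.04, 7.43 and 8.07 RPKM in cKO hearts (−0.49, standard error 0.107, limma adjusted p = 0.0398), with no overlap.

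The other helicase subunits had log2 fold changes of −0.35 (Mcm2, no overlap), −0.27 (Mcm3), −0.25 (Mcm4) and −0.41 (Mcm5). Mcm5 showed where the samples parted: it was at 23.9, 25.8 and 21.9 RPKM in Ctrl against 15.5, 15.5 and 24.0 RPKM in cKO hearts, so that cKO 3 alone lay within the Ctrl range. For Cdc6 (4.38, 3.47 and 6.504 RPKM in the cKO hearts and 5.94, 5.58 and 6.28 RPKM in Ctrl) cKO 3 was above every Ctrl heart and the other cKO hearts below. Pcna, the sliding clamp of the replication fork, was at 42.8, 27.7 and 30.9 RPKM in Ctrl against 32.7, 26.3 and 38.6 RPKM in cKO hearts, and its log2 fold change of −0.05 turned to 0.07 with median-ratio scaling.

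Of the 3 enzymes of nucleotide synthesis, Tk1, thymidine kinase, fell from 13.9, 11.7 and 12.7 RPKM (Ctrl) to 8.63, 9.13 and 8.09 RPKM in cKO hearts (log2 fold change −0.56, standard error 0.116, limma adjusted p = 0.0327), and the groups did not overlap. Rrm2, a subunit of ribonucleotide reductase and the most abundant of the group, was at 48.5, 41.2 and 47.0 RPKM in Ctrl against 31.6, 34.6 and 42.7 RPKM in cKO hearts (−0.34, limma adjusted p = 0.176), with cKO 3 inside the Ctrl range. Tyms, thymidylate synthase, had a log2 fold change of 0.14 with overlapping groups. Exons of Tk1 share 1.6% of their bases with Afmid on the other strand, as do 17.4% of those of Ccne2 with Ints8 and 2.8% of those of Cdc20 with Elovl1, and reads there may count for either gene.

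The B-type cyclins, which bring Cdk1 into mitosis, both fell. Ccnb1, on chromosome 13 from 100778650 to 100786570, was at 21.1, 22.8 and 19.5 RPKM in Ctrl against 14.3, 15.8 and 13.4 RPKM in cKO hearts (log2 fold change −0.54, standard error 0.114, limma adjusted p = 0.0359). Ccnb2, on chromosome 9 from 70407692 to 70421547, was at 27.8, 29.01 and 23.8 RPKM in Ctrl against 19.6, 18.7 and 19.1 RPKM in cKO hearts (−0.48, standard error 0.112, limma adjusted p = 0.0435). Neither overlapped between groups, and neither kept its call with median-ratio scaling (limma adjusted p = 0.0822 and 0.0803). Ccna2, cyclin A2 and the most abundant of these 7 genes, was at 42.7, 37.4 and 34.9 RPKM in Ctrl against 31.0, 28.9 and 30.6 RPKM in cKO hearts (limma adjusted p = 0.111). Their partner Cdk1 overlapped between groups (−0.19), as did Foxm1 (−0.15), a transcription factor of mitotic genes. The mitotic kinase Plk1 (−0.31) and the phosphatase Cdc25c (−0.23) did not overlap and did not pass.

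Among the 10 genes of the spindle, the chromosomes and the mitotic checkpoint, Cenpa and Bub1b fell. Cenpa encodes the histone H3 variant of centromeres, lies on chromosome 5 from 30666777 to 30674830, and had the largest fall of the 39 genes, from 31.0, 34.9 and 30.0 RPKM (Ctrl) to 20.9, 20.8 and 19.8 RPKM in cKO hearts. The group means were 31.9 ± 2.63 RPKM (Ctrl) and 20.5 ± 0.595 RPKM (cKO; SD, n = 3 each), and the log2 fold change was −0.63 with a standard error of 0.107 (limma adjusted p = 0.0217). Bub1b, the checkpoint kinase BubR1, on chromosome 2 from 118598211 to 118641591, was at 25.9, 24.7 and 22.9 RPKM in Ctrl against 16.8, 17.0 and 17.0 RPKM in cKO hearts (−0.53, standard error 0.102, limma adjusted p = 0.0275). In both, the cKO hearts were close to each other and below every Ctrl heart.

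Top2a, the topoisomerase that untangles chromosomes and the most abundant of this group, was at 95.9, 88.6 and 79.6 RPKM in Ctrl against 68.4, 62.7 and 72.5 RPKM in cKO hearts (−0.37, limma adjusted p = 0.107), without overlap. Bub1 (−0.43), Kif11 (−0.42, a spindle motor) and Aurkb (−0.39, a kinase of chromosome attachment) did not overlap either and had adjusted p values of 0.0712, 0.0632 and 0.0715 (limma). Mki67 (−0.29), the proliferation marker, Cdc20 (−0.29), Birc5 (−0.18) and Aurka (−0.03) overlapped between groups.

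**Figure D3:**
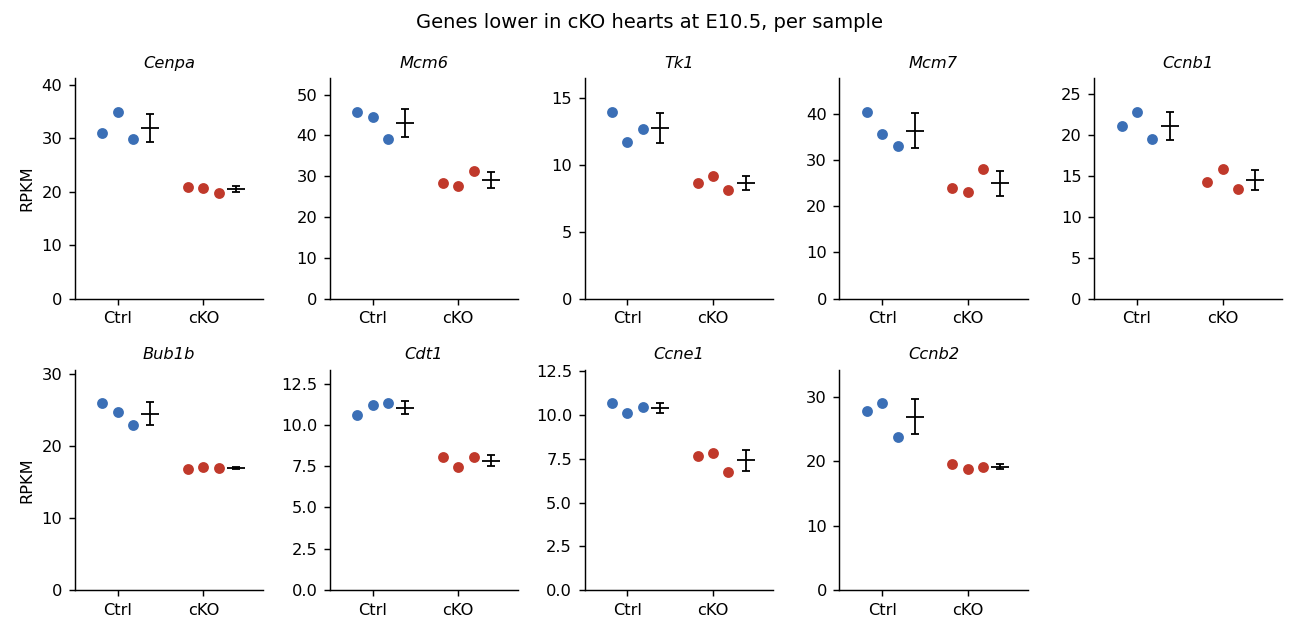
RPKM of the 9 genes that fell in E10.5 cKO hearts, with a point per sample (3 Ctrl, blue; 3 cKO, red) and a black bar for the mean and SD of each group, each axis starting at 0. In every panel the 3 cKO points lie under the 3 Ctrl points, as for Cenpa at 19.8 to 20.9 RPKM against 30.0 to 34.9 RPKM.

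Genes of the cycle share short promoter motifs, the CCAAT box bound by NF-Y, the E2F site and the CHR element bound by the MuvB complex. In the 250 bases before the RefSeq start, taken for 31 of the 39 genes, a CCAAT box (CCAAT or ATTGG) was present in 22, or 71.0%, against 37.5% of the promoters of 27025 genes. An E2F motif (TTCCCGC or TTCGCGC, or with other letters in the centre TTGCCGC or TTGGCGC, on either strand) was present in 9 (29.03%, against 9.01%), and a CHR motif (TTTGAA or TTCGAA, on either strand) in 10 (32.3%, against 19.6%). The letters ATTGG and TTGGCGC can overlap. All 9 genes lower at E10.5 had a promoter in the table, of which 6 held a CCAAT box, 3 an E2F motif and 3 a CHR motif. A match is a run of letters and no sign that a factor binds there.

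The 100 bases before the start of Mcm6, Ccnb2, Bub1b and Cdt1, which fell at E10.5, and of Top2a and Kif11, described at both stages, are given 5′ to 3′ from RefSeq (GRCm38.p6). Motifs are in capitals. For Mcm6, unlike the other 5, the bases after the RefSeq start were not found in a GENCODE transcript of the gene. The stretch of Mcm6 holds a pair of CCAAT boxes around overlapping E2F motifs, that of Ccnb2 3 CCAAT boxes, and those of Top2a and Kif11 a CHR motif downstream of 3 CCAAT boxes and of 1, in that order, while none of these letters occur in the 100 bases of Bub1b and Cdt1.
Mcm6 (chr1:128359706-128359805, minus strand): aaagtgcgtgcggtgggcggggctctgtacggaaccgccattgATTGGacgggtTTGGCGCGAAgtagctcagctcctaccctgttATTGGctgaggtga
Ccnb2 (chr9:70421555-70421654, minus strand): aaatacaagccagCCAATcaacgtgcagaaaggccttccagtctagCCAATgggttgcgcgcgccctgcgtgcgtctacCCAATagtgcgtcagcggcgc
Bub1b (chr2:118598111-118598210, plus strand): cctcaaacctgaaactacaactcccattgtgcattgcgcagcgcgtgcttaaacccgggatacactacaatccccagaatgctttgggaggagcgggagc
Cdt1 (chr8:122567915-122568014, plus strand): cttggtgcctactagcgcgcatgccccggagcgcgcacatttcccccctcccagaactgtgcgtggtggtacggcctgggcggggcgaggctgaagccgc
Top2a (chr11:99024190-99024289, minus strand): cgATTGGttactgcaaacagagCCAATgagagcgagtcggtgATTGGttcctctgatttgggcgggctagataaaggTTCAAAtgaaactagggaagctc
Kif11 (chr19:37376282-37376381, plus strand): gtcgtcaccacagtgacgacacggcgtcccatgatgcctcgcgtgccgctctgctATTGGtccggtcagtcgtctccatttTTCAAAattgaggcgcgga

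Other genes of the pathway, from lists of the same kind, were counted in the same way at E10.5. Of 40 genes of origin recognition, firing and the replication fork, 7 fell (5 with median-ratio scaling) and 38 were below 0 (median −0.36). Among all genes tested 3.45% fell (2.6% with median-ratio scaling) and 68.6% were below 0. Pold2, a subunit of DNA polymerase delta, was at 13.7, 12.3 and 13.0 RPKM in Ctrl against 7.31, 8.38 and 6.66 RPKM in cKO hearts (log2 fold change −0.80, limma adjusted p = 0.0177). Cdc45, part of the active helicase, fell from 10.7, 10.6 and 9.62 to 5.43, 5.67 and 6.83 RPKM. Gins1 (−0.71), of the same helicase, and Dut (−0.69), which clears dUTP, fell as well. None of these 4 overlapped between groups.

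Of 53 genes of the kinetochore, condensin, kinesins and cytokinesis, 4 fell and 50 were below 0 (median −0.26). The shares over all genes, 3.45% and 68.6%, hold for the lists below as well. Cks2, a small subunit of cyclin-dependent kinases, was at 12.5, 11.2 and 9.76 RPKM in Ctrl against 6.99, 4.01 and 4.62 RPKM in cKO hearts (−1.11, limma adjusted p = 0.0236). The others were Sgo1 (−0.54), Melk (−0.53) and Nusap1 (−0.50), and with median-ratio scaling Cks2 alone passed. Of 17 genes of the pocket proteins, other E2F factors and the MuvB complex, Lin9 fell (−0.57, limma adjusted p = 0.0457, or 0.0663 with median-ratio scaling), while Mybl2 was at 3.96, 5.03 and 3.68 RPKM in Ctrl against 2.89, 2.56 and 3.02 RPKM in cKO hearts (limma adjusted p = 0.0850) and Rb1 at 2.198, 1.56 and 2.07 and 2.75, 2.29 and 1.66 RPKM. Of 7 inhibitors of cyclin-dependent kinases, 5 were tested and Cdkn1a, which encodes p21, rose from 4.34, 3.54 and 4.46 to 27.1, 40.5 and 13.0 RPKM. In cKO 3, whose cell cycle genes lay nearest to Ctrl, Cdkn1a was the lowest of the cKO hearts, and so was Med30, at 1.004 RPKM. A link between these levels was not tested. Cdkn1b was at 7.98, 7.51 and 7.43 RPKM in Ctrl against 6.85, 6.19 and 9.98 RPKM in cKO hearts, and Cdkn1c at 439, 362 and 413 and 304, 339 and 297 RPKM, neither past the test.

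Among the adult libraries, icKO 1 stood apart in transcripts of the embryonic heart. The embryonic globin Hbb-y, at a mean of 329.6 RPKM in E10.5 Ctrl hearts, was at 4.12 RPKM in icKO 1, 0.123 RPKM in Ctrl 1 and 0 in the other 4 adult samples. Of genes above 20 RPKM in E10.5 Ctrl hearts and under 0.2 RPKM in the other 5 adult samples, limits chosen after the values were seen, 19 were found for icKO 1, and their median in icKO 1 was 0.943% of the E10.5 level. These limits leave the level in icKO 1 free and bound it in every other sample, and they were set with icKO 1 known, so the number of genes found is a description of icKO 1 and no comparison with the other samples. Results on genes at low levels are therefore given with and without icKO 1.

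In adult cardiomyocytes 10 of the 39 genes had a mean above 1 RPKM over the 6 samples and were tested. Of these, 8 rose in icKO cardiomyocytes, Pcna, Ccna2, Ccnd2, Cdk2, Mcm4, Mcm7, Ccnd3 and Cdk4, and Cenpa fell, at a limma adjusted p under 0.05. Of all 9517 genes tested, 60.6% rose and 18.1% fell by this rule, with a median log2 fold change of 0.57 beside 0.72 for the 10 genes. With a log2 fold change beyond 1 as well, Pcna, Ccna2 and Ccnd2 rose (28% of all genes) and Cenpa fell (8.45%). Median-ratio scaling, which brings the median of all genes to 0.03, left 4 of the 8 rises, Pcna, Ccna2, Ccnd2 and Cdk2, where 34.3% of all genes rose, and gave 2 falls, Cenpa and Ccnd1, where 34% fell. The 20 most abundant genes of a library took 24.8% to 25.4% of the summed RPKM in Ctrl and 11.5% to 13.1% in icKO cardiomyocytes.

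Cell markers also moved between these groups. The 12 cardiomyocyte markers summed to 29290 to 30705 RPKM in Ctrl and 10546 to 13627 RPKM in icKO samples, with 10 lower and 2 higher by the test and none at 0. The 10 fibroblast markers summed to 16.2 to 21.8 RPKM in Ctrl and 62.6 to 90.6 RPKM in icKO samples, with 5 higher and 1 lower of 6 tested. Endothelial and endocardial markers (10 genes) summed to 14.3 to 33.8 and 33.9 to 59.2 RPKM, macrophage and leukocyte markers (10) to 3.25 to 5.64 and 8.13 to 11.4, mural markers (6) to 60.8 to 68.5 and 21.9 to 44.1, epicardial markers (7) to 1.122 to 3.55 and 2.42 to 4.97, and erythroid markers (10) to 1.29 to 21.3 and 11.8 to 26.5, with Gata1 under 0.1 RPKM in every sample. By the test 4 of 9 endothelial, 3 of 3 macrophage and 2 of 4 mural markers were higher and 1 mural marker lower, and none of 3 erythroid markers passed. By the same rule 60.6% of all genes rose and 18.1% fell. With median-ratio scaling 1 of 9 endothelial, 1 of 3 macrophage and 1 of 4 mural markers were higher. Lower with that scaling were 1 mural marker and 1 of 4 erythroid markers. There 4 of 6 fibroblast markers were higher and 1 lower, and 10 of 12 cardiomyocyte markers were lower and 1 higher. Of all genes 34.3% rose and 34% fell with that scaling. The part of these cells in the rises and falls of the cell cycle genes was not tested.

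Pcna had the largest change of the 10 genes tested. It lies on chromosome 2 from 132249162 to 132253314 of GRCm38 and was at 6.62, 6.33 and 4.78 RPKM in Ctrl against 43.1, 26.1 and 34.7 RPKM in icKO cardiomyocytes, a rise of the mean from 5.91 ± 0.989 to 34.6 ± 8.48 RPKM (SD, n = 3 each). Every icKO sample was far above every Ctrl sample and at the level of the E10.5 hearts, which held 42.8, 27.7 and 30.9 RPKM in Ctrl. Its log2 fold change was 2.52 with a standard error of 0.187 (limma adjusted p = 3.30e-06), and 1.98 with median-ratio scaling. Without icKO 1, and with no filter on low genes, it was 2.34 (limma adjusted p = 6.77e-05).

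Of the other licensing genes tested, Mcm4 was at 0.991, 1.19 and 0.887 RPKM in Ctrl against 1.93, 1.76 and 1.53 RPKM in icKO cardiomyocytes (log2 fold change 0.72, limma adjusted p = 0.00666). Mcm7 was at 2.10, 1.97 and 1.66 RPKM in Ctrl against 2.99, 3.06 and 3.57 RPKM in icKO cardiomyocytes (0.72, limma adjusted p = 0.00160). Neither overlapped between groups, and neither passed with median-ratio scaling (0.22 and 0.20). Exons of Mcm7 share 7.3% of their bases with Ap4m1 and 1.4% with Cops6 on the other strand, and whether reads were counted by strand is not stated. Cops6 was far more abundant than Mcm7, at 44.3, 44.2 and 43.1 RPKM in Ctrl and 72.8, 82.1 and 64.0 RPKM in icKO cardiomyocytes. The part of such reads in the rise of Mcm7 was not tested.

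The D-type cyclins parted from each other. Ccnd2, on chromosome 6 from 127125162 to 127152193, rose from 18.5, 15.2 and 20.1 RPKM (Ctrl) to 39.8, 45.1 and 39.1 RPKM in icKO cardiomyocytes (log2 fold change 1.21, standard error 0.115, limma adjusted p = 1.36e-05), and was the most abundant of the 39 genes in both groups. Ccnd1, also without overlap, was lower, at 2.07, 1.88 and 2.04 RPKM in Ctrl against 1.60, 1.177 and 1.69 RPKM in icKO cardiomyocytes (−0.41, limma adjusted p = 0.0569), and passed with median-ratio scaling (−0.92, limma adjusted p = 0.00155). The call on Ccnd2 and the direction of both genes were the same with either scaling.

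Ccnd3 rose from 10.8, 9.04 and 10.53 RPKM (Ctrl) to 14.8, 14.7 and 15.5 RPKM in icKO cardiomyocytes (0.56, limma adjusted p = 5.63e-04), and Cdk4 from 11.6, 11.5 and 11.3 to 15.7, 17.1 and 14.7 RPKM (0.46, limma adjusted p = 0.00115). Both rises were smaller than the shift of the median gene, and with median-ratio scaling Ccnd3 was at 0.03 and Cdk4 at −0.08. Exons of Cdk4 share 19.7% of their bases with Tspan31 on the other strand, which was at 18.3, 16.0 and 17.0 RPKM in Ctrl and 38.3, 36.5 and 31.3 RPKM in icKO cardiomyocytes. Exons of Ccnd3 share 4.1% with Bysl. Cdk6, not tested at a mean of 1.08 ± 0.273 RPKM (Ctrl) and 0.579 ± 0.139 RPKM (icKO; SD, n = 3 each), was lower in every icKO sample.

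Ccna2, the cyclin of S phase and G2, rose from 1.05, 0.908 and 0.767 RPKM (Ctrl) to 2.22, 3.14 and 1.83 RPKM in icKO cardiomyocytes (log2 fold change 1.28, standard error 0.229, limma adjusted p = 7.01e-04). It lies on chromosome 3 from 36564865 to 36572150, and 12.5% of the bases of its exons are shared with Exosc9 on the other strand, which was at 7.42, 6.63 and 6.33 RPKM in Ctrl and 16.9, 21.7 and 15.4 RPKM in icKO cardiomyocytes. Its partner Cdk2 rose from 2.18, 2.18 and 2.14 to 4.52, 4.02 and 3.83 RPKM (0.89, standard error 0.121, limma adjusted p = 1.29e-04). Both passed with median-ratio scaling, at 0.78 and 0.37.

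Cenpa was the member that fell. It was at 7.05, 6.59 and 7.35 RPKM in Ctrl against 2.47, 2.89 and 4.10 RPKM in icKO cardiomyocytes, so that the highest icKO sample lay below the lowest Ctrl sample. The log2 fold change was −1.15 with a standard error of 0.174 (limma adjusted p = 2.46e-04) and −1.68 with median-ratio scaling (limma adjusted p = 6.07e-05). It is also the gene with the largest fall among the 39 at E10.5.

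**Figure D4:**
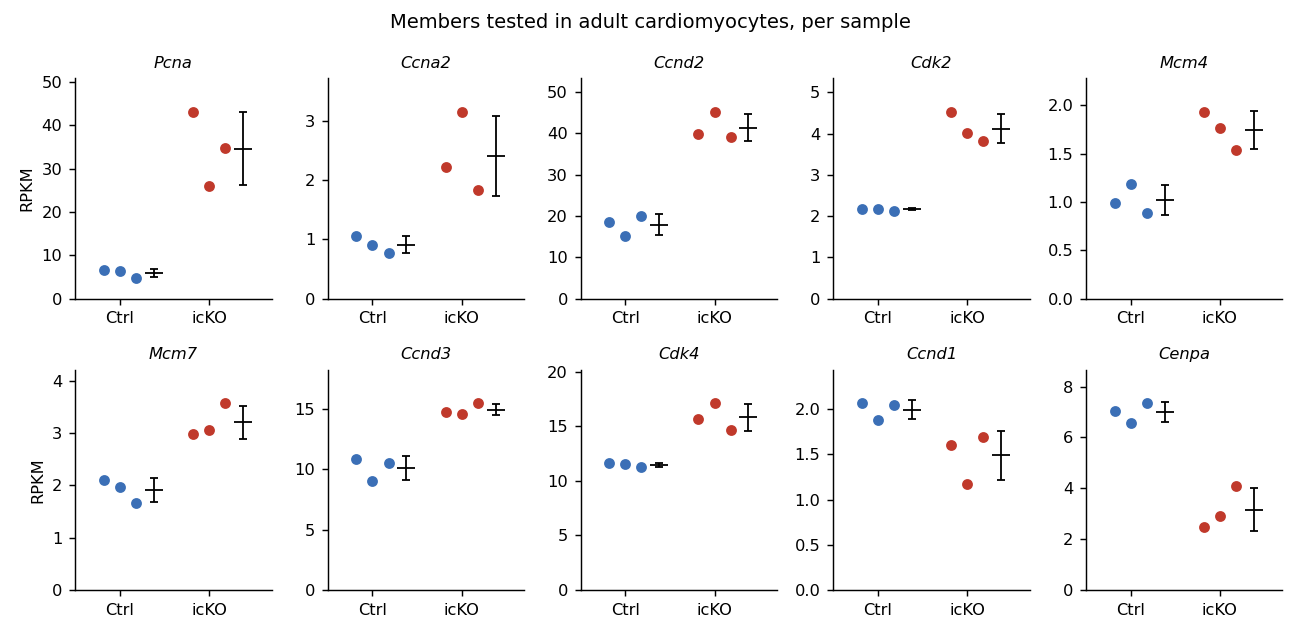
RPKM of the 10 genes tested in adult cardiomyocytes, with a point per sample (3 Ctrl, blue; 3 icKO, red) and a black bar for the mean and SD of each group, each axis starting at 0. The 3 icKO points of Pcna lie at 26.1 to 43.1 RPKM against 4.78 to 6.62 RPKM in Ctrl, while those of Cenpa and Ccnd1 lie under the Ctrl points.

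The other 29 genes had a mean of 1 RPKM or less and were not tested. Their levels summed to 5.54, 6.90 and 6.22 RPKM in Ctrl and to 13.7, 8.27 and 7.82 RPKM in icKO cardiomyocytes, where the E10.5 Ctrl hearts held 655.9 RPKM on average. In 13 of the 29 every icKO sample lay above every Ctrl sample, in 2, Mcm2 and Cdk6, every icKO sample lay below, and 14 overlapped. Of the 22 members with a mean of 0.1 to 1 RPKM, 12 lay above and 2 below, where 37.8% of all 3018 genes at such levels lay above and 18.3% below. In 23 of the 29 genes icKO 1 was the highest of the icKO samples. The excess of icKO 1 over the mean of icKO 2 and icKO 3 had a median of 0.829% of the E10.5 Ctrl level over the 29 genes. Of these 29 genes Cdk1, Ccnb1 and Plk1 are also among the 19 embryonic transcripts above. Cdc25c was listed at 0 in all Ctrl samples.

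**Figure D5:**
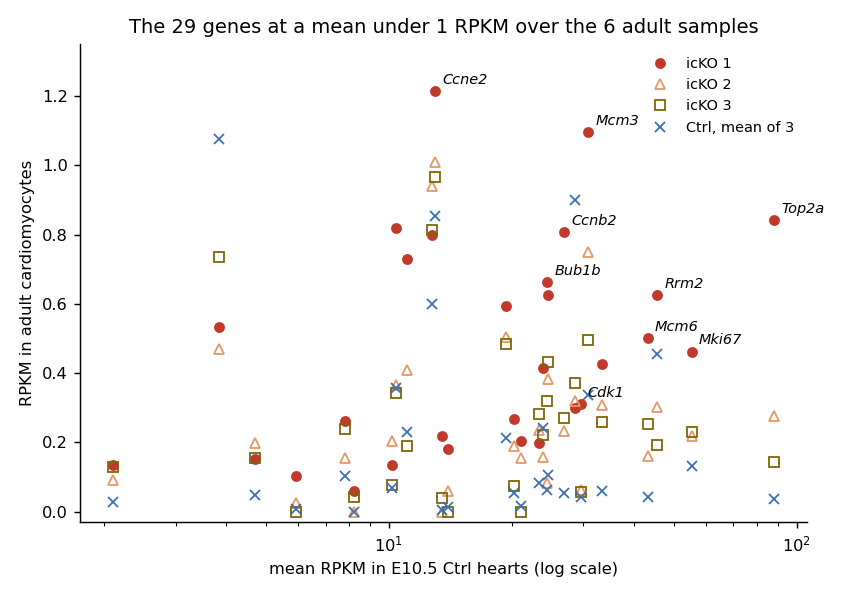
RPKM in adult cardiomyocytes (vertical axis) of the 29 genes at a mean under 1 RPKM against their mean in E10.5 Ctrl hearts (horizontal axis, log scale), for each icKO sample and the mean of the 3 Ctrl samples. Genes abundant in the embryo such as Top2a, at 0.841 RPKM in icKO 1 against 0.275 and 0.144 RPKM in icKO 2 and icKO 3, stand highest in icKO 1.

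A fit with no filter on low genes called 12 of the 29 higher and 2 lower with all samples, and 8 higher and 1 lower without icKO 1. Of all genes 42.6% rose and 13.6% fell with all samples, and 40% rose and 12.6% fell without icKO 1. With median-ratio scaling 5 of the 29 rose (24.1% of all genes) and 2 fell (23.9%), and without icKO 1 as well 4 rose (21.4% of all genes) and 2 fell (21.7%). The fits without icKO 1 and those with median-ratio scaling and no filter were chosen after the values were seen. Top2a was at 0.0290, 0.0440 and 0.0340 RPKM in Ctrl against 0.841, 0.275 and 0.144 RPKM in icKO cardiomyocytes, Ccnb2 at 0.0490, 0.0740 and 0.0380 and 0.808, 0.233 and 0.271, and Mcm6 at 0.0260, 0.0580 and 0.0400 and 0.5, 0.161 and 0.254. For these 3 genes the Ctrl samples were under the level of 3 reads on a gene of 2 kb, and icKO 2 and icKO 3 lay above every Ctrl sample as well. The longest transcript has 5221 bases for Top2a and 4355 for Mcm6, where 3 reads stand for a lower level, and 1531 for Ccnb2. Kif11 was at 0.110, 0.0590 and 0.147 RPKM in Ctrl against 0.626, 0.384 and 0.433 RPKM in icKO cardiomyocytes. These 4 genes passed in all 4 of the fits, and without icKO 1 their log2 fold changes, on the log2(RPKM + 0.1) scale, were 1.16, 1.20, 1.11 and 1.33.

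Other calls on low genes were lost without icKO 1, in a fit with 1 sample fewer. Bub1b was at 0.0620, 0.0310 and 0.0970 RPKM in Ctrl against 0.663, 0.0820 and 0.319 RPKM in icKO cardiomyocytes, and its log2 fold change moved from 1.27 to 0.78 without icKO 1 (limma adjusted p = 0.0479 and 0.135). That of Mcm3 moved from 1.04 to 0.79 (limma adjusted p = 0.156 without icKO 1). The changes of Aurka (1.08 to 1.01, limma adjusted p = 0.0533 without icKO 1) and Tyms (0.67 to 0.57, limma adjusted p = 0.124) stayed about as large though they no longer passed. Birc5, Cdc20, E2f1 and E2f2 still passed. With median-ratio scaling and all samples Cdc20, E2f1 and E2f2 did not pass (limma adjusted p = 0.0528, 0.0531 and 0.0528). Birc5 did not pass with that scaling without icKO 1 (limma adjusted p = 0.113). Elovl1, which shares exon bases with Cdc20, was at 2.93, 2.80 and 2.64 RPKM in Ctrl and 12.1, 13.0 and 11.2 RPKM in icKO cardiomyocytes. Cdk1 was at 0.0260, 0.0600 and 0.0410 RPKM in Ctrl against 0.310, 0.0630 and 0.0580 RPKM in icKO cardiomyocytes, with icKO 2 and icKO 3 at the level of Ctrl 2. The proliferation marker Mki67 was at 0.157, 0.163 and 0.0760 RPKM in Ctrl against 0.462, 0.219 and 0.231 RPKM in icKO cardiomyocytes, without overlap, and did not pass (limma adjusted p = 0.0573 with icKO 1 and 0.162 without).

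Mcm2 went the other way from Mcm3, Mcm4, Mcm6 and Mcm7, from 0.853, 1.11 and 0.734 RPKM (Ctrl) to 0.299, 0.319 and 0.372 RPKM in icKO cardiomyocytes (log2 fold change −1.20 with no filter, limma adjusted p = 0.00274, and −1.15 without icKO 1). The other members that did not pass with icKO 1 were Ccnb1, Ccne1, Ccne2, Cdc25c, Cdc6, Cdt1, Mcm5, Aurkb, Plk1, Bub1, Foxm1, Rrm2 and Tk1. Of these Ccne2 and Tk1 had the highest icKO means, at 1.06 and 0.850 RPKM, against 0.853 and 0.600 RPKM in Ctrl. Both changes turned in sign with median-ratio scaling, from 0.29 to −0.20 for Ccne2 and from 0.46 to −0.01 for Tk1.

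Regulators of the cycle beyond the 39 genes moved in both directions in adult cardiomyocytes. Of the CDK inhibitors, Cdkn1a rose from 10.1, 5.66 and 9.99 RPKM (Ctrl) to 171, 181 and 144 RPKM in icKO cardiomyocytes, with a log2 fold change of 4.30 that was 3.76 with median-ratio scaling. Cdkn1c rose by 1.44 (limma adjusted p = 0.0157), at 0.596, 0.925 and 0.959 RPKM in Ctrl against 5.44, 1.76 and 1.36 RPKM in icKO cardiomyocytes, with icKO 1 far above the others. Without icKO 1 and with no filter the change was 0.85 (limma adjusted p = 0.0365), the call was lost with median-ratio scaling (limma adjusted p = 0.0890), and the E10.5 Ctrl hearts held 439, 362 and 413 RPKM of this gene. Cdkn2d rose by 0.78, a call lost with median-ratio scaling. Cdkn1b was at 6.997, 8.06 and 6.94 RPKM in Ctrl against 6.16, 7.68 and 7.86 RPKM in icKO cardiomyocytes and passed, as lower, with median-ratio scaling alone (−0.56).

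Of 12 tested genes of the pocket proteins, other E2F factors and the MuvB complex, 7 rose and 3 fell, where 60.6% of all genes rose and 18.1% fell, and 3 rose and 3 fell with median-ratio scaling, where 34.3% rose and 34% fell. Tfdp2 and Tfdp1, both dimer partners of E2F factors, moved apart, with Tfdp2 at 24.8, 24.0 and 19.0 RPKM in Ctrl against 7.08, 7.22 and 6.14 RPKM in icKO cardiomyocytes (−1.71) and Tfdp1 at 4.15, 3.40 and 3.69 and 9.96, 9.10 and 8.95 RPKM (1.30). E2f3 (1.08) and Rbbp4 (1.07) rose with either scaling. Rb1 rose by 0.70, or 0.17 with median-ratio scaling, where it did not pass, and Mybl2 was at 0, 0.0150 and 0 RPKM in Ctrl against 0.128, 0.0320 and 0 RPKM in icKO cardiomyocytes and was not tested.

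Of 22 tested genes of origins and the replication fork, 10 rose and 4 fell, beside 60.6% and 18.1% of all genes. With median-ratio scaling 5 rose and 10 fell, of 23 tested, beside 34.3% and 34% of all genes. Gmnn, geminin, the inhibitor of Cdt1, fell from 17.0, 14.3 and 15.0 RPKM (Ctrl) to 0.912, 0.860 and 1.54 RPKM in icKO cardiomyocytes (−3.73, limma adjusted p = 6.88e-07), and Dut from 4.95, 5.72 and 4.55 to 0.496, 0.448 and 0.295 RPKM (−3.35). Rpa3 fell by 1.66 on the log2 scale, and Rfc5, of the clamp loader for Pcna, rose from 0.833, 0.626 and 0.683 to 3.15, 2.46 and 2.37 RPKM (1.76). Of 8 tested genes of the kinetochore, condensin, kinesins and cytokinesis, 2 rose and 3 fell, among them Sgo2a, which protects centromeric cohesion, from 3.51, 3.71 and 2.61 to 0.301, 0.372 and 0.405 RPKM (−2.87), Ncapd2 (−1.14), Wee1 (−1.06, with overlapping groups) and Bub3, which rose (0.76). Wee1 passed in 2 of the 6 fits without one sample. With median-ratio scaling 1 gene of this list rose and 4 fell, of 9 tested, and the shares of all genes are those given for the fork.

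The effect of the knockout was compared between the stages for the 10 genes tested at both, in a limma fit of all 12 samples. The difference, 4 weeks minus E10.5, was above 0 at an adjusted p under 0.05 for 8 of the 10 and below 0 for Cenpa, where 59.4% of all 8909 genes tested were higher and 9.29% lower. Median-ratio scaling, which moves the median difference of all genes from 0.69 to 0.04, left 5 higher (28.1% of all genes), Ccna2, Ccnd2, Cdk2, Mcm7 and Pcna, and gave 2 lower (25.1%), Ccnd1 and Cenpa. Pcna differed most, by 2.56 (standard error 0.294, limma adjusted p = 6.61e-06), or 1.91 with median-ratio scaling. Ccnd2 had a log2 fold change of −0.42 at E10.5 and 1.21 at 4 weeks, a difference of 1.63 (0.97 with median-ratio scaling). Stage, the Cre driver and whole heart against isolated cells changed together between the tables and cannot be told apart.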

How the data were processed

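RNA-seq libraries of 12 samples, 3 per group, were compared within each stage. The authors mapped reads to GRCm38 (mm10), counted them on genes and deposited RPKM per sample. The submitters' processing notes name cutadapt 2.6, STAR 2.5.3a, HOMER 4.11.1 and DESeq2 1.12.4. The deposited tables also hold the authors' own fold changes, FDR and a mean RPKM, which were not used. The annotation, the strand setting and the reads behind the scaling are not given in the sources used here.

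RPKM were fitted as log2(RPKM + 0.1) with limma 3.58.1 (lmFit, eBayes with trend; R 4.3.3) keeping genes whose RPKM averaged above 1 across the 6 samples of a stage, with Benjamini-Hochberg adjustment over all genes. The log2 scale with this pseudocount understates changes of low genes. The fit was tested on simulated data with log2 fold changes beyond 1 alone, so that test does not cover the smaller changes called at E10.5. Median-ratio scaling divided each sample by the median ratio of its genes to their geometric mean. The difference between stages was an interaction term in a fit of all 12 samples. Alternatives were other scalings, pseudocounts, filters, moderation, sample weights, a replicate block and leaving out each sample. An exact permutation test of 3 against 3 samples cannot go below p = 0.1. All 39 genes are accounted for. Values in every sample are given for genes past the test without overlap, for the most abundant of each role and for low genes that are named. Other lists give up to 4 genes each, by the size of their change, with Cdkn1a, Cdkn1b, Cdkn1c, Rb1 and Mybl2. Members and lists were chosen with earlier results of these data known. Between 62.8% and 72.4% of the low values lay within 0.1 of a whole read, so counts were not recovered and no count test was run. No 2 samples held the same values. Promoters came from RefSeq (GRCm38.p6). In 30 of 34 promoter records the bases after the start were found in a GENCODE transcript of the gene.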

Additional observations from a re-analysis of the deposited data

Results flagged for a closer look

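The effect of the knockout differed between 4 weeks and E10.5, by a test of the difference itself (limma, adjusted over 8909 genes), for 9 of the 10 genes tested at both stages. By the same test 59.4% of all genes were higher at 4 weeks and 9.29% lower, or 28.1% and 25.1% with median-ratio scaling. The difference of the log2 fold changes, 4 weeks minus E10.5, was 2.56 for Pcna, 1.63 for Ccnd2, 1.62 for Ccna2, 1.26 for Mcm7 and 1.09 for Cdk2. These 5 also passed with median-ratio scaling, at 1.91, 0.97, 1.001, 0.62 and 0.44. For Mcm4 it was 0.97, for Cdk4 0.85 and for Ccnd3 0.60, and these 3 did not pass with median-ratio scaling (limma adjusted p = 0.159, 0.151 and 0.751). For Cenpa it was −0.52 (limma adjusted p = 0.0387), a call kept in 4 of the 12 fits without one sample, and −1.17 with median-ratio scaling (limma adjusted p = 9.94e-04).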

How the results depend on the processing

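At E10.5, 9 members were lower. That count was 5 with median-ratio scaling, 4 with quantile normalization, 2 without the 20 most abundant genes, 2 with no RPKM filter (2 with median-ratio scaling as well), 0 with eBayes without a trend (18 at an unadjusted p under 0.05), 21 with sample weights, 10 for a mean RPKM above 5, and 9 with a pseudocount of 1 or 0.01 or with 3 samples above 1 RPKM. Without one sample it was 0 to 7. With a replicate block it was 2, and the block moved no other count given here by over 1.5 times. Over all genes, 260 of 10885 fell with quantile normalization, 210 of 10894 without the 20 most abundant genes and 112 of 16562 with no RPKM filter. Without a trend 99 of 10885 genes fell, with sample weights 1780 of 10885, and for a mean RPKM above 5 it was 469 of 6642. These counts over all genes are at the adjusted p, and none was made at an unadjusted p. Same-numbered samples had correlations of their deviations of 0.0124, 0.101 and −0.0698 at E10.5 and 0.153, 0.0433 and 0.0450 at 4 weeks, so they share a number alone and the pairing was not used. The median of the members, −0.34, was −0.22 with median-ratio scaling (with or without the filter), −0.17 with quantile normalization, −0.16 without the 20 most abundant genes and −0.40 to −0.26 without one sample. The sign of 6 small changes turned from below to above 0 at E10.5. With median-ratio scaling (with or without the filter), quantile normalization and without the 20 most abundant genes the values were 0.0835, 0.15 and 0.14 for Ccnd3, 0.0716, 0.10 and 0.13 for Pcna, 0.0928, 0.11 and 0.15 for Aurka, and 0.0499, 0.045 and 0.10 for E2f1. Ccnd1 was at 0.002 with quantile normalization and 0.0332 without the 20 most abundant genes, and Foxm1 at 0.0251 without them. Without one sample Ccnd3 ranged from −0.12 to 0.0502, Pcna from −0.18 to 0.14, Aurka from −0.14 to 0.0598 and E2f1 from −0.21 to 0.0388.

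At 4 weeks, 1 member was lower and 8 were higher. The lower count was 2 with median-ratio scaling, quantile normalization, eBayes without a trend, sample weights or without the 20 most abundant genes, 3 with no filter, 4 with no filter and median-ratio scaling, and 1 to 2 without one sample. The higher count was 4 with median-ratio scaling, quantile normalization or a mean RPKM above 5, and 20 with no filter. Among all genes 34.3% rose and 34% fell with median-ratio scaling, and 42.6% rose and 13.6% fell with no filter. Beyond a log2 fold change of 1, the lower count of 1 was 0 with a pseudocount of 1, 2 with no filter, 3 with no filter and median-ratio scaling, and 0 to 1 without one sample (0 without icKO 1). The higher count of 3 was 1 with median-ratio scaling or quantile normalization, 11 with no filter and 6 with no filter and median-ratio scaling. The median of 0.72 was 0.21 with median-ratio scaling, 0.33 with quantile normalization, 0.49 without the 20 most abundant genes, 0.53 and 0.76 with a pseudocount of 1 and 0.01, 0.56 for a mean RPKM above 5, 0.68 with sample weights, 0.41 with no filter and median-ratio scaling, and 0.63 to 0.78 without one sample. Leaving out icKO 1 with no filter, chosen after seeing the data, gave 2 lower and 16 higher, 8 of them beyond a log2 fold change of 1, and a median of 0.57. In that fit 40% of all genes rose and 12.6% fell. With median-ratio scaling as well, leaving out icKO 1 gave 4 lower, 3 of them beyond a log2 fold change of 1, and 7 higher, 1 of them beyond it, and a median of 0.22. There 21.4% of all genes rose and 21.7% fell. Cdk4 turned to −0.0782 with median-ratio scaling (with or without the filter), −0.0867 with quantile normalization, and −0.0535 with no filter, median-ratio scaling and no icKO 1. Of the stage differences, 8 higher became 5 and 1 lower became 2 with median-ratio scaling, where Ccnd3 turned to −0.0576, and the lower count was 0 with a pseudocount of 1 and 0 to 1 without one sample.

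For single genes over all settings, 875 values kept their direction and side of the threshold, 115 no longer passed, 23 newly passed and 31 changed sign. The fits with no filter and median-ratio scaling together were also chosen after seeing the data. Depth limits the 29 low genes in the adult, whose levels together came to 5.54 to 6.90 RPKM in a Ctrl sample, and the rises of Ccnd3, Cdk4, Mcm4 and Mcm7 did not pass with median-ratio scaling. Fewer or more genes tested, and fewer samples, are part of some of these fits by construction, and the cause of the other changes was not tested.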
